A study of Rattus norvegicus with 8 samples.

Results

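Hepatic RNA levels of the genes for mitochondrial ribosomal proteins were compared between rats on an iron-deficient diet and rats on a control diet. The genes were those whose symbol begins with Mrpl (large subunit) or Mrps (small subunit) followed by a number, taken from probe sets with exactly 1 gene symbol. Each gene was represented by its brightest probe set, judged by the mean of the 8 arrays. This gave 73 of the 14217 named genes on the array, 46 for the large and 27 for the small subunit, and all 73 entered the comparison without a filter on level. All animals were male Sprague-Dawley rats, an outbred strain, killed at 7 weeks of age after 1.5 h of feeding. The 4 iron-deficient livers came from rats given a diet from which ferric citrate had been left out until day 17, when blood hemoglobin stood at 42% of the control level. The 4 control livers came from rats on the matching diet with iron, and Avicel took the place of cellulose in both diets, which were based on AIN93G. The labels name each array a biological replicate without tying it to an animal, and each array is called a liver here for short.

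The mitochondrial ribosome makes the few proteins of the respiratory chain that mitochondrial DNA encodes. Its own proteins are all encoded in the nucleus and imported, and some descend from bacterial ribosomal proteins while others occur only in mitochondria. The small subunit reads the messenger RNA and carries iron-sulphur clusters held between pairs of its proteins, whereas the large subunit forms the peptide bonds and feeds the new chain towards the inner membrane. The liver is rich in mitochondria, and the respiratory chain is a main user of cellular iron.

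Promoter sequence was available for 59 of the 73 genes, with 61 windows in all because Mrps21 and Mrpl14 each had 2. Each RefSeq window on the rat assembly GRCr8 covers 250 bases before and 50 bases after the annotated start, so it ends within the transcribed part of the gene. The windows were searched on both strands for the NRF1 motif GCGCANGCG, the ETS motif CCGGAAG, which GABP binds, the YY1 motif AAGATGGCG and the E-box CACGTG, which Myc and Max bind. These factors are known regulators of nuclear genes for mitochondrial proteins, and the letters of no motif contain those of another. Of the 8 windows for genes whose 2 diet groups did not overlap, 3 (37.5%) held a match, namely those of Mrpl4, Mrps26 and Mrps18a. The share was 56.6% (30 of 53) for the windows of the other mitochondrial ribosomal protein genes and 30.3% for the promoters of genes on the array. The 3 windows are shown with that of Mrps18b, the gene with the largest deposited difference, a size that cannot be compared between probe sets. The Mrps18b window held 3 of the 4 motifs, as did those of Mrpl36 and Mrpl30. Bases are written 5′ to 3′ in the direction of the gene, with every match in capitals.
Mrpl4, chr8:27815521-27815820, plus strand: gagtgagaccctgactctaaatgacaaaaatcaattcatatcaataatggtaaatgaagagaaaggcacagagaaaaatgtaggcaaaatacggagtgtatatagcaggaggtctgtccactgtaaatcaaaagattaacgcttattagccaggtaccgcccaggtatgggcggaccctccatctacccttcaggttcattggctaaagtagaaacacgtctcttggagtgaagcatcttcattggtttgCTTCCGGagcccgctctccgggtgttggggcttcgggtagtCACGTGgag
Mrps26, chr3:138222074-138222373, plus strand: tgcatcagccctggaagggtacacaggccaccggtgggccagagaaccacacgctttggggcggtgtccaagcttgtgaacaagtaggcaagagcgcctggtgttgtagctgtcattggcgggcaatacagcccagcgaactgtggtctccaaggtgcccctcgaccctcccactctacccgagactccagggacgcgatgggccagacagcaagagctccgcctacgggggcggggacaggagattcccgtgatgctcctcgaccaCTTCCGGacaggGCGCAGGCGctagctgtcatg
Mrps18a, chr9:22367331-22367630, minus strand: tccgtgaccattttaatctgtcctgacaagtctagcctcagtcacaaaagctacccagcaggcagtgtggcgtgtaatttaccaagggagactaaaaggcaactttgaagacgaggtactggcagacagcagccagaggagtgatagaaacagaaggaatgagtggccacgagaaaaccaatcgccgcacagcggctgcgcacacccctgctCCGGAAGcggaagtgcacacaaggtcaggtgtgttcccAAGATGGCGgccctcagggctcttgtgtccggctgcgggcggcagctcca
Mrps18b, chr20:2842756-2843055, plus strand: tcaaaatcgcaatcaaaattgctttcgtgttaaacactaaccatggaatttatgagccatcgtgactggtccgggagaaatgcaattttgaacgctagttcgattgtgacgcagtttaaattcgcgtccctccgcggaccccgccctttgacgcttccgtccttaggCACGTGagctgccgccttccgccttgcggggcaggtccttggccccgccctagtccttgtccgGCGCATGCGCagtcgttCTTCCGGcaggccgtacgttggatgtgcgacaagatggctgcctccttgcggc

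The ETS match of Mrpl4 began at base 1 of the transcript and its E-box at base 42. In Mrps26 both matches lay in the transcribed part, the ETS match from base 18 and the NRF1 match from base 30. The Mrps18a window had its ETS match 38 bases upstream and its YY1 match at base 1 of the transcript. In Mrps18b the NRF1 motif, found on both strands, began 20 and 19 bases upstream, beside an ETS match 3 bases and an E-box 83 bases upstream. Over all 61 windows of the mitochondrial ribosomal protein genes, 20 (32.8%) held the ETS motif, 11 (18.0%) the NRF1 motif, 8 (13.1%) the YY1 motif and 6 (9.84%) the E-box. The shares among the 13192 promoters of genes on the array were 14.2%, 10.7%, 2.93% and 8.65%, and among all 33469 promoters in RefSeq's set 8.75%, 5.8%, 1.73% and 6.42%. At least 1 motif was present in 33 of 61 windows (54.1%), against 30.3% of the promoters of genes on the array. The large subunit windows held one in 25 of 39 cases (64.1%) and the small subunit windows in 8 of 22 (36.4%), and these shares are descriptions that were not tested. Mrps11 and Mrpl46 lie head to head on chromosome 1, and their windows (chr1:142117014-142117313, plus strand, and chr1:142116981-142117280, minus strand) share 267 bases in which none of the 4 motifs was found. Both genes read lower in the iron-deficient group, with differences of -10.3 ± 5.51 (SE) for Mrps11 and -8.85 ± 9.29 millionths of a log2 unit for Mrpl46, and neither passed the test.

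**Figure D1:**
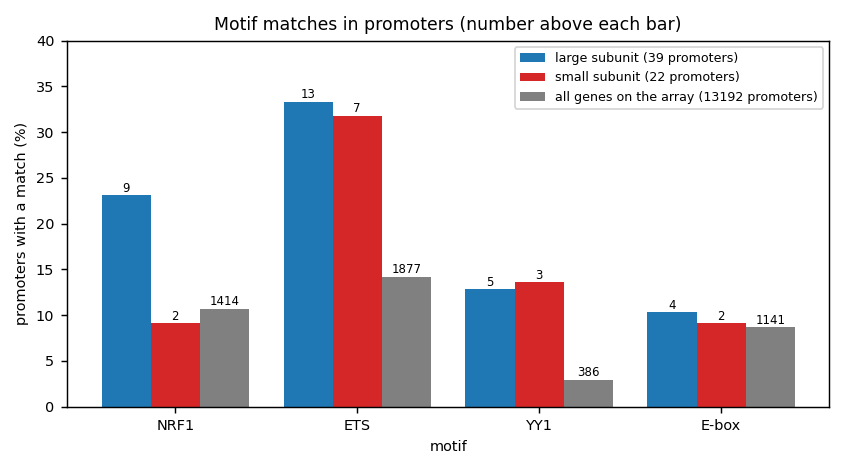
Share of promoter windows with a match to each of 4 motifs, in percent, for the large subunit genes (39 windows), the small subunit genes (22 windows) and all genes on the array (13192 windows). The number above a bar is the count of windows with a match; the ETS bars of both subunits, 33.3% and 31.8%, stand above the 14.2% of all genes on the array.

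The diet labels were checked on genes of iron handling. Tfrc, the transferrin receptor, read 11.021, 11.022, 11.016 and 11.017 in the iron-deficient livers and 10.981, 10.982, 10.982 and 10.980 in the control livers on the deposited log2 scale, and it rose (adjusted p = 0.0012, limma). Hamp, the gene of the iron hormone hepcidin, read 6.976, 10.577, 6.988 and 6.928 against 16.011, 15.991, 15.992 and 16.099 (adjusted p = 0.0735), so the groups did not overlap and iron-deficient liver 2 stood apart from the other three. Of 10 hepatocyte markers, 9 were measured and all 9 lay above the array medians. Over the whole array 10 of 31042 probe sets (0.0322%) passed the adjusted threshold of 0.05.

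The deposited differences are compressed, and unevenly so from one probe set to the next. The absolute difference between the diet groups had a median of 6.40 millionths of a log2 unit over the 73 genes (0.0025 to 291.8) and 5.29 over all genes, whereas the medians of the 8 arrays spanned 739.5 millionths. For this reason no fold changes are given, and values per array and differences with their SE are given in millionths of a log2 unit, the former counted from the control mean of the same probe set. The standardised difference is the iron-deficient minus control difference divided by the within-group SD. All 73 genes were brighter than the median probe set of the arrays, with mean log2 levels of 8.37 to 11.07.

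No mitochondrial ribosomal protein gene passed the test at an adjusted p of 0.05, where 0.0422% of all genes passed (limma with Benjamini-Hochberg adjustment). In the values as deposited 55 of the 73 genes read lower in the iron-deficient livers and 18 higher, but 52 of the 55 turned higher under quantile normalization, 49 of them under median centring of the arrays and 30 under quantile normalization without the Hamp probe sets. Of all genes, 53% read lower as deposited, 40.6% under quantile normalization, 57.8% without the Hamp probe sets in it and 9.19% under median centring. An unadjusted p under 0.05 was reached by 12 of the 73 genes, all of them lower, where 7.5% of all genes reached it in that direction, and by none in the higher direction, where 5.74% did. In liver tissue as a whole, fewer cells of a type and less RNA per cell cannot be told apart.

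Among the large subunit genes 32 of 46 read lower as deposited, with a median standardised difference of -0.60 and a lowest adjusted p of 0.225. Among the small subunit genes 23 of 27 did, with a median of -0.93 and a lowest adjusted p of 0.140, and the median of all genes was -0.07. The groups did not overlap, with every iron-deficient liver below every control liver, for 3 large (6.52%) and 8 small subunit genes (29.6%). Together these make 15.1% of the 73, where 4.4% of all genes showed this. The opposite order was shown by no member and by 3.42% of all genes. Under quantile normalization, quantile normalization without the Hamp probe sets and median centring none of the 73 genes had non-overlapping groups in the lower direction, where 1.39%, 2.09% and 0.197% of all genes did. In the higher direction 3, 1 and 0 of the 73 had them, where 7.29%, 1.1% and 0.528% of all genes did. The array medians spanned 739.5 millionths, more than any member's difference, so overlap under median centring was set by the array offsets. The medians turned to 1.10, 0.18 and 0.16 for the large subunit and 1.10, 0.36 and 0.15 for the small. For all genes the median was 0.18, -0.30 and 0.17 under these scalings. Without iron-deficient array 1 the large subunit median was -0.27, and without control array 3 -0.32. The difference between the subunits was not tested.

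**Figure D2:**
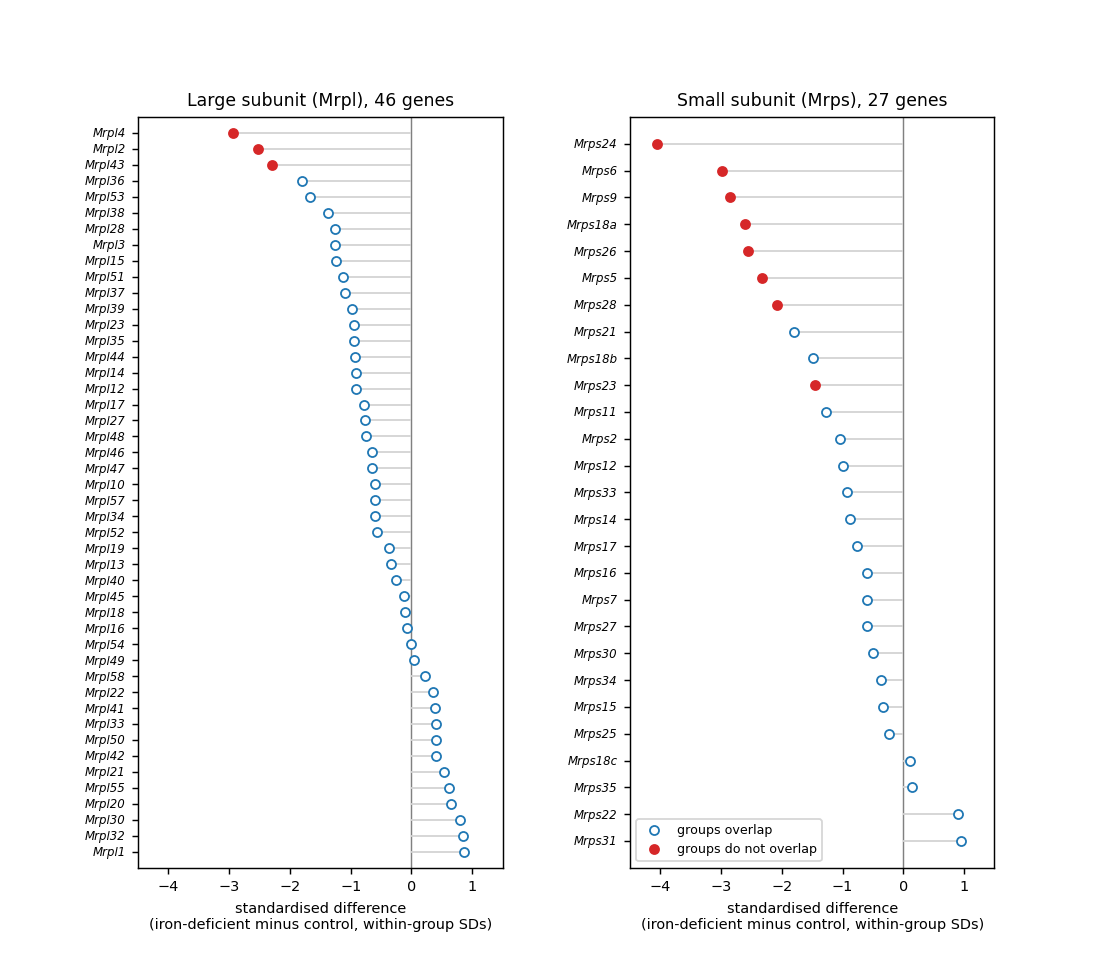
Standardised difference of each of the 46 large and 27 small subunit genes (horizontal axis, iron-deficient minus control in within-group SDs, 4 livers a group, values as deposited), with filled points for genes whose groups did not overlap. Most points lie left of 0 in both panels and the 11 filled points all do, from -4.06 for Mrps24 to -1.45 for Mrps23, a direction that turned under other scalings.

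The small subunit genes are taken first, beginning with those of bacterial descent. Mrps24, which lies where messenger RNA enters the small subunit, had the lowest standardised difference of all members. Its iron-deficient livers read -9.65, -9.18, -9.63 and -9.27 millionths from the control mean and its control livers 0.828, -4.27, 3.65 and -0.203. The iron-deficient values lay within a narrow band below all controls, a difference of -9.44 ± 1.72 (SE) that did not pass (adjusted p = 0.140). For Mrps6, a ligand of an iron-sulphur cluster at the platform of the subunit, the iron-deficient livers read -17.7, -8.42, -13.8 and -18.7 and the controls -2.52, -4.74, 0.184 and 7.08. Iron-deficient liver 2, the highest of its group, stayed below the lowest control (difference -14.7 ± 3.39, adjusted p = 0.219). Mrps9, a protein of the head of the subunit, read -13.7, -12.3, -17.5 and -23.8 against 1.23, -9.18, 6.45 and 1.49. Control liver 2 came nearest to the iron-deficient group (difference -16.8 ± 4.05, adjusted p = 0.234).

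Mrps5, also of the messenger entry side, had wider spreads, with -68.3, -47.0, -104 and -118 in the iron-deficient livers and -30.1, -5.52, 57.2 and -21.6 in the controls. The groups did not overlap (difference -84.3 ± 24.5, adjusted p = 0.298). Mrps28, which descends from the bacterial protein S1, read -25.0, -17.7, -25.1 and -50.5 against -7.01, -16.2, 9.35 and 13.9, and only a narrow gap parted iron-deficient liver 2 from control liver 2 (difference -29.6 ± 9.63, adjusted p = 0.341). Mrps21, another protein with a bacterial counterpart, overlapped through iron-deficient liver 2 at -1.20, while the lowest control read -1.45 (difference -3.31 ± 1.42, adjusted p = 0.451). In all, 14 of the 15 small subunit genes with a bacterial counterpart read lower, where 53% of all genes did, and 5 of them without overlap, where 4.4% did. None of the 15 was lower without overlap under the 3 other scalings, and the median standardised difference of -1.04 turned to 1.10, 0.09 and 0.14.

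The other 12 genes of the Mrps series encode proteins without a bacterial counterpart on the list used, 2 of which, Mrps18a and Mrps30, sit in the large subunit. Of the 12, 9 (75%) read lower as deposited, where 53% of all genes did, with a median of -0.55. Without overlap 3 of the 12 (25%) were lower (Mrps26, Mrps23 and Mrps18a), where 4.4% of all genes were. Mrps26 read -11.0, -12.0, -6.67 and -19.3 in the iron-deficient livers and -2.58, -4.74, 3.36 and 3.96 in the controls. All 4 iron-deficient values were the lower ones (difference -12.3 ± 3.32, adjusted p = 0.272). Mrps23 had its groups apart by a small gap, with -3.21, -4.54, -7.76 and -2.82 against 5.73, -1.95, -1.20 and -2.59, and control liver 1 stood above the rest (difference -4.58 ± 2.24, adjusted p = 0.51). Among those that read higher were Mrps31, with a difference of 1.51 ± 1.27, Mrps22 with 29.7 ± 22.5 and Mrps35 with 1.78 ± 8.36. Their groups overlapped and their adjusted p-values ran from 0.685 to 0.968. Of the settings run, Mrps22 passed only under quantile normalization, where it was higher (adjusted p = 0.0441). Without the Hamp probe sets in it Mrps22 was higher too, with an adjusted p of 0.057 and a standardised difference of 5.29.

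The Mrps18 genes encode 3 related proteins that take different places in the ribosome. Mrps18a, whose protein sits in the large subunit despite its name, read -6.61, -6.99, -8.11 and -3.04 in the iron-deficient livers and -2.14, 2.28, 2.10 and -2.24 in the controls. Iron-deficient liver 4 came closest to the controls without reaching them (difference -6.19 ± 1.74, adjusted p = 0.285). Mrps18b, a mitochondria-specific paralog, had the largest deposited difference of the 73 genes, a size that cannot be compared between probe sets. Its iron-deficient livers read -613, -306, -61.4 and -187 and its controls 12.2, 12.2, 166 and -190. Control liver 4 read below 2 iron-deficient livers, and the difference of -292 ± 133 had an adjusted p of 0.475. Mrps18c, the paralog that pairs with Mrps6 around an iron-sulphur cluster, read -7.94, 30.3, -15.2 and 0.033 against 8.32, -6.26, 9.59 and -11.6, with full overlap (difference 1.81 ± 10.8, adjusted p = 0.975).

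The iron-sulphur cluster ligands are Mrps6, Mrps16, Mrps18c and Mrps25, and the last pairs with Mrps16. As deposited 3 of these 4 read lower, and only Mrps6 did so without overlap. Mrps16 read -0.717, 2.42, -4.74 and -36.4 in the iron-deficient livers, with liver 4 far below the others, and 15.6, -17.2, -5.74 and 7.30 in the controls (adjusted p = 0.802). For Mrps25 the iron-deficient values were -1.54, 2.98, -1.23 and -2.01 and the control values -0.0673, -1.77, 1.67 and 0.170, so iron-deficient liver 2 was the highest of all 8 (adjusted p = 0.95). The median of the 4 ligands was -0.42 beside -0.93 for all small subunit genes and turned to 1.14, 0.54 and 0.15 under the other scalings. When Mrps18a and Mrps30, another protein of the large subunit with a small subunit name, were counted with the large subunit, 34 of 48 large and 21 of 25 small subunit genes read lower, and the medians stayed at -0.60 and -0.93.

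**Figure D3:**
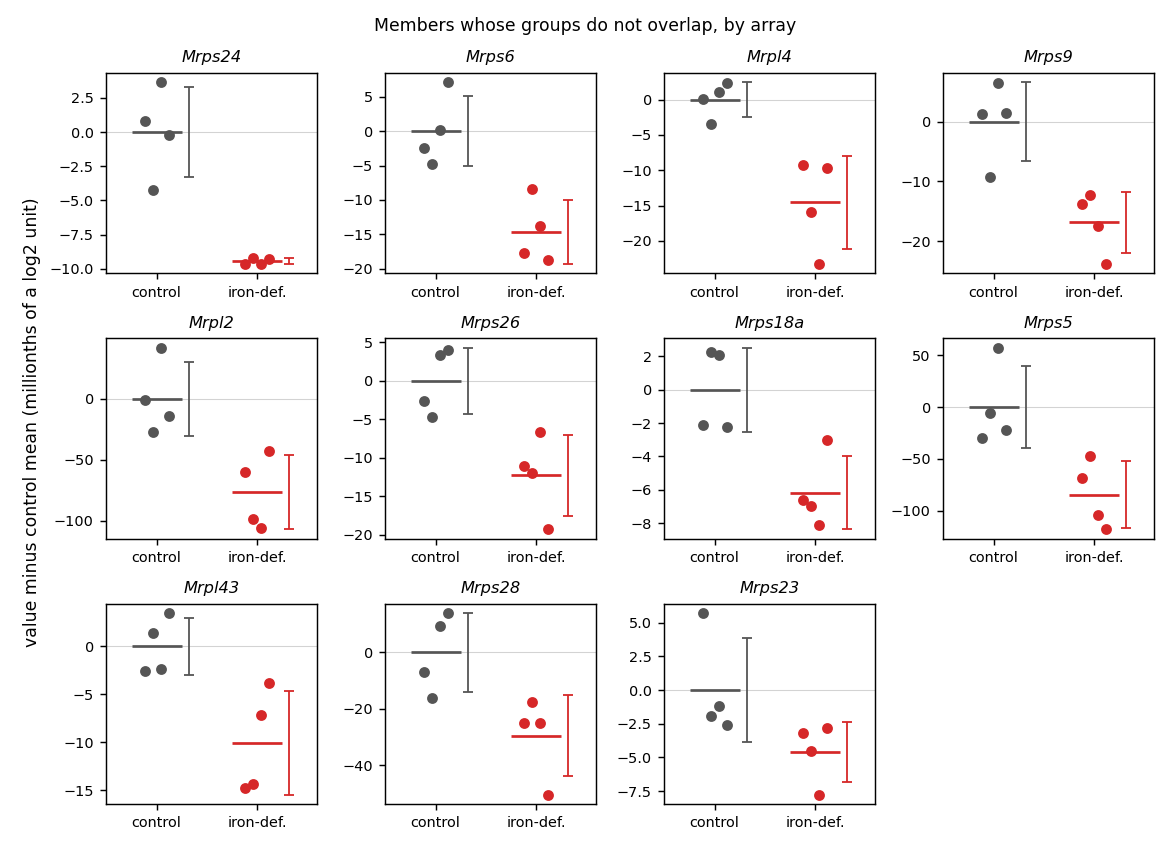
Values of the 11 genes whose groups did not overlap, per liver, in millionths of a log2 unit from the control mean; bars at the points are group means, and the bars beside them show ± 1 SD (4 livers a group). Every iron-deficient point lies below every control point as deposited, the spread differs widely between genes, and no gene kept this order under the 3 other scalings of the arrays. The array medians spanned 739.5 millionths, more than any difference shown, so overlap under median centring was set by the array offsets.

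In the large subunit, Mrpl4, a core protein near the tunnel through which the new chain leaves, had the lowest standardised difference (-2.93). Its iron-deficient livers read -9.30, -15.9, -23.3 and -9.69 and its controls 0.0425, -3.40, 1.06 and 2.29. A gap larger than the control range parted the groups (difference -14.5 ± 3.42, adjusted p = 0.225). Mrpl2, a protein close to the peptidyl transferase centre, read -60.0, -98.8, -106 and -42.5 against -0.902, -27.4, 42.2 and -13.9, again with all iron-deficient livers lower (difference -76.8 ± 20.5, adjusted p = 0.266). Mrpl43, which occurs only in mitochondria, read -14.8, -14.4, -7.13 and -3.83 against -2.53, 1.42, -2.38 and 3.50. Iron-deficient liver 4 lay just under the lowest control (difference -10.0 ± 3.03, adjusted p = 0.316).

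The next genes in order overlapped between the groups. Mrpl36, a very small zinc-binding protein, read -6.64, -5.09, -6.63 and -5.98 in the iron-deficient livers, and control liver 3 at -6.31 lay among them (difference -6.08 ± 2.38, adjusted p = 0.414). Mrpl53 overlapped through control liver 4 at -12.8 (difference -12.7 ± 5.21, adjusted p = 0.431). For Mrpl38 the difference was -23.1 ± 11.4, for Mrpl28 -97.4 ± 52.3 and for Mrpl3, a core protein beside the catalytic centre, -12.5 ± 6.73, all with adjusted p-values between 0.513 and 0.548. The highest moderated statistics of the large subunit belonged to Mrpl1, a protein of the mobile stalk at which spent transfer RNA leaves (standardised difference 0.863), Mrpl32, whose precursor the m-AAA protease trims (0.853), Mrpl30 (0.792) and Mrpl55 (0.615), and their adjusted p-values ran from 0.699 to 0.799. Their groups overlapped, and in Mrpl30 control liver 1, at 31.1, was above all 4 iron-deficient livers, which read 15.3, 5.44, 13.1 and 14.0.

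The large subunit holds proteins of both lines of descent. Of its 26 genes with a bacterial counterpart on the list used 19 (73.1%) read lower as deposited, with a median of -0.62. Of the 20 genes without one on that list 13 (65%) did, with a median of -0.59, where 53% of all genes read lower. The median of the 26 turned to 1.105, 0.36 and 0.16 under the other scalings. Of the 7 measured genes of the factor-binding stalk and the tunnel exit 6 read lower as deposited, with a median of -0.64 that turned to 1.12, 0.36 and 0.16 under the other scalings. They included Mrpl12 (-23.1 ± 17.1) and Mrpl10 (-1.40 ± 1.71) of the stalk, Mrpl23 (-20.8 ± 14.8) and Mrpl47 (-37.6 ± 39.5) at the tunnel exit, and Mrpl45 (-0.877 ± 5.19), which ties the ribosome to the inner membrane. Mrpl22, also at the exit, read higher (4.15 ± 7.95). None of these had non-overlapping groups. Mrpl58, a release factor for stalled ribosomes that became a part of the subunit, gave 0.236 ± 0.977.

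The livers of a group did not read alike. After each gene was set against its 8-array mean in units of its within-group SD, the median over the 46 large subunit genes was -0.71, 0.34, -0.02 and -0.57 in iron-deficient livers 1 to 4 and 0.42, -0.34, 0.73 and 0.23 in control livers 1 to 4. The groups overlapped on this measure, since iron-deficient liver 2 lay above 2 controls and control liver 2 below 2 iron-deficient livers. For the 27 small subunit genes the medians were -0.80, -0.02, -0.33 and -1.07 against 0.75, -0.10, 1.18 and 0.28. Here iron-deficient liver 2 lay above control liver 2. Over all genes the arrays ranged from -0.20 in iron-deficient liver 4 to 0.11 in control liver 3, the same arrays that were lowest and highest for the small subunit. Iron-deficient liver 4 was the lowest of the 8 for 27 of the 73 genes and iron-deficient liver 1 for 17, and the highest was control liver 3 for 24 genes and iron-deficient liver 2 for 16. Iron-deficient liver 2 was also the one with the high Hamp value, and the part of either array in the members' differences was not tested.

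**Figure D4:**
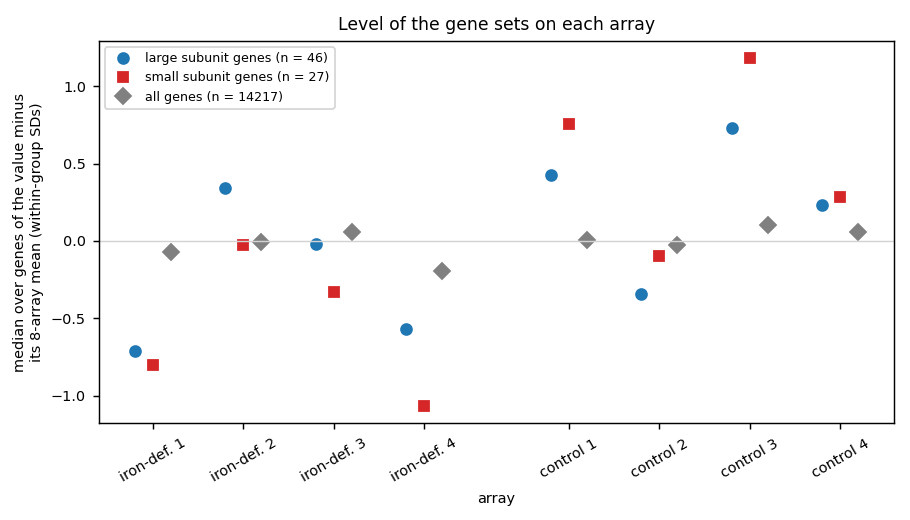
Median over genes of each array's value minus the gene's 8-array mean, in within-group SDs (vertical axis), for the large subunit genes, the small subunit genes and all 14217 genes on each of the 8 arrays. The member medians span -1.07 to 1.18 while those of all genes stay between -0.20 and 0.11, and for the large subunit array 2 of each group lies within the range of the opposite group; values are as deposited.

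Probe sets of the same gene often differed. Of the 73 genes, 18 had more than 1 probe set, with 24 further probe sets. All probe sets of a gene had the same sign in 10 of the 18 genes, and 13 of the 24 further probe sets had the sign of the one chosen. None of the 24 had non-overlapping groups or passed the test. The correlation of a further probe set with the chosen one over the 8 arrays ran from -0.51 to 0.85 with a median of 0.05, and 8 arrays share their scaling. Mrps9 had a further probe set that read lower as well (-9.83 ± 3.19, r = 0.84), whereas that of Mrps24 gave -4.99 ± 5.46 and that of Mrps26 1.07 ± 4.99. For Mrps14, 1 further probe set read higher by 33.8 ± 12.4 where the chosen one gave -8.57 ± 6.64, and for Mrps2 both further probe sets read higher, by 24.8 ± 8.92 and 9.04 ± 5.20, where the chosen one gave -89.2 ± 58.2. The other 8 of the 11 genes without overlap had 1 probe set each.

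The other genes of mitochondrial gene expression were described from lists of known factors, and no gene of any of these lists passed as deposited. Of the 6 measured mitoribosomal proteins named otherwise, Mrpl58 included, 4 read lower (median -0.20), among them Gadd45gip1 (-12.8 ± 5.64) and Chchd1 (-3.66 ± 3.47). Ptcd3, a small subunit protein, read higher by 14.7 ± 6.11 (adjusted p = 0.437). Of 19 translation factors 13 read lower (median -0.28). Pdf, which removes the formyl group from new mitochondrial proteins, had non-overlapping groups (-27.8 ± 5.55, adjusted p = 0.167). It was the only 1 of the 19 (5.26%) lower without overlap, a share near the 4.4% of all genes. Tufm, the elongation factor that delivers transfer RNA, read lower with a difference of -35.2 ± 12.9 (adjusted p = 0.389), whereas Gatc gave 4.65 ± 4.18 and Mss51 9.50 ± 7.46. Of 15 aminoacyl-tRNA synthetases, which charge transfer RNAs, 11 read lower (median -0.84). Cars2 (-65.7 ± 13.8) and Aars2 did so without overlap, 13.3% of the list beside 4.4% of all genes. Vars2 gave -10.8 ± 3.42, Yars2 40.4 ± 33.9 and Iars2 3.80 ± 1.65. The medians of these 3 lists turned to 1.10, 0.46 and 0.09 under quantile normalization and to 0.17, 0.16 and 0.16 under median centring, and were -0.46, -0.40 and -0.15 under quantile normalization without the Hamp probe sets.

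As deposited 53% of all genes read lower, 4.4% were lower without overlap and 3.42% higher without overlap. Among 26 genes of ribosome assembly and rRNA modification 15 (57.7%) read lower (median -0.34), 3 of them (11.5% of the list) without overlap. These included Spg7, a subunit of the m-AAA protease (-109 ± 25.8, adjusted p = 0.226), and Rpusd4, a pseudouridine synthase (-9.46 ± 3.00, adjusted p = 0.333), while Eral1, a chaperone of the small subunit rRNA, read higher by 26.3 ± 9.94 and Nsun4, an rRNA methyltransferase, by 24.2 ± 13.6. Of 21 genes of mitochondrial transcription and RNA processing 13 read lower (median -0.38). Prorp, which cuts the 5′ ends of transfer RNAs, gave -118 ± 23.7 and Polg2, a subunit of the mitochondrial DNA polymerase, -1168 ± 337, both without overlap. Mtpap, the mitochondrial poly(A) polymerase, lay higher without overlap (15.5 ± 4.41, adjusted p = 0.288) and Ssbp1 gave 33.9 ± 16.7. Of 18 import and chaperone genes 13 read lower (median -0.18), Pmpca (-15.8 ± 4.19) and Lonp1 (-10.8 ± 3.00) without overlap, while Tomm20, a receptor of the outer membrane, lay higher without overlap (12.0 ± 3.50) and Timm17a gave 38.4 ± 19.9. The medians of these lists turned to 0.66, 0.94 and 0.98 under quantile normalization, 0.04, 0.14 and 0.28 without the Hamp probe sets in it and 0.16, 0.17 and 0.17 under median centring.

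The nuclear regulators of mitochondrial genes, among them factors whose motifs were sought in the promoters, gave mixed values. Of 11 measured, 8 read lower (median -0.91, and -0.45 under quantile normalization, -1.32 without the Hamp probe sets and 0.13 under median centring). Nrf1 read lower without overlap (-9.99 ± 2.40, adjusted p = 0.234), where 4.4% of all genes did. Gabpa gave 14.9 ± 6.91 (adjusted p = 0.481) and Yy1 6.07 ± 4.51 (adjusted p = 0.679). Myc, which drives ribosome genes in growing cells, had a difference of -33080 ± 4550 millionths without overlap, with an adjusted p of 0.089 as deposited. Under median centring its adjusted p was 0.00227, where 38 of all 14217 genes passed in either direction. It also passed under quantile normalization, where 778 of the 14217 did.

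Cytosolic ribosomal protein genes were set beside the members. Of 40 measured, 29 (72.5%) read lower as deposited, with a median of -0.53, and 2 of the 40 (5%) had non-overlapping groups in that direction. For the mitochondrial ribosomal proteins the corresponding shares were 75.3% and 15.1%, with a median of -0.64. Under median centring all 40 read higher, with a median of 0.17. Under quantile normalization 38 read higher and 33 passed, where 5.12% of all genes passed in the higher direction. These values cannot be set beside the others, since 33 of the 40 genes then had no spread within the groups and no standardised difference. As many, 33, had none when the Hamp probe sets were left out of it, where 3 read lower and 3 higher. The difference between the 2 families was not tested.

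**Figure D5:**
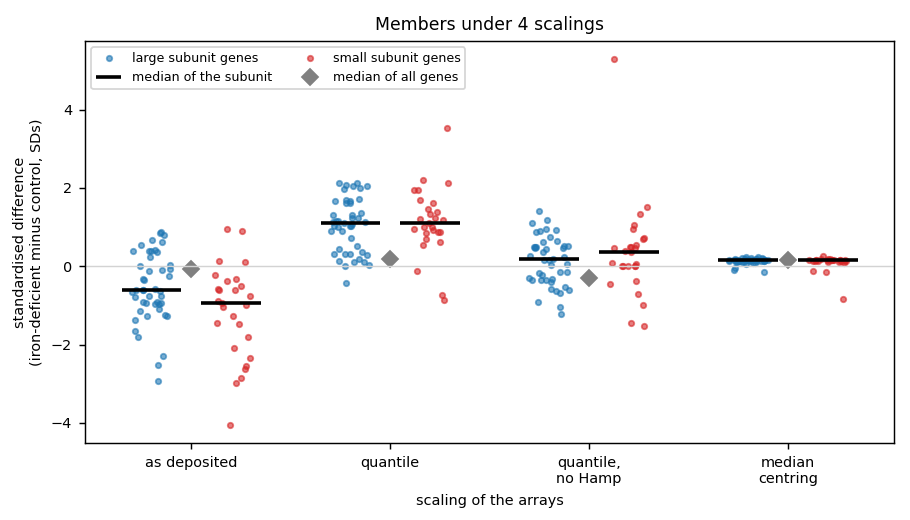
Standardised difference of each large and small subunit gene (points, iron-deficient minus control, 4 livers a group) for values as deposited, after quantile normalization, after quantile normalization without the Hamp probe sets and after median centring, with the median of each subunit (lines) and of all genes (diamonds). The subunit medians pass from -0.60 and -0.93 as deposited to 1.10 and 1.10 after quantile normalization, 0.18 and 0.36 without the Hamp probe sets and 0.16 and 0.15 after median centring. The median of all genes passes from -0.07 to 0.18, -0.30 and 0.17. Genes whose normalized values had no spread have no point.

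The size of these shifts was measured. Median centring added 50.6 millionths of a log2 unit to every difference, and 67 of the 73 members had deposited differences smaller than that. Quantile normalization changed the members' differences by a median of 401 millionths and those of all genes by 35.7, and without the Hamp probe sets by 62.6 and -33.8. Mrpl18 and Mrps22 passed under quantile normalization, both higher, where 5.12% of all genes passed in that direction. Mrpl18 was among 832 genes with no spread at all within the groups on those normalized values, and its deposited difference was -1.01 ± 6.99.

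Markers of other liver cell types were read on the same arrays, and none passed as deposited. Of 8 endothelial markers 7 read higher and 6 did so without overlap, where 3.42% of all genes did. Without overlap and higher were 3 of them under quantile normalization (7.29% of all genes), 1 without the Hamp probe sets in it (1.1%) and 2 under median centring (0.528%). Their summed log2 level as deposited ran from 72.4432 to 72.4454 in the iron-deficient livers and from 72.4388 to 72.4400 in the controls. In such sums the least compressed probe sets weigh most, so they do not read the markers of a list evenly. Of 10 stellate and fibroblast markers 8 read higher, 3 without overlap, with sums of 78.6012 to 78.6153 against 78.5940 to 78.5993. All 8 Kupffer cell and macrophage markers read higher, with sums of 76.3048 to 76.3106 against 76.3006 to 76.3033, a list whose median turned to -0.24 under quantile normalization without the Hamp probe sets. The hepatocyte sums overlapped, 120.6277 to 120.6298 against 120.6275 to 120.6290, and 4 of the 9 markers read higher. Sums of the lymphocyte, cholangiocyte and erythroid markers overlapped too, at 55.5329 to 55.5332 against 55.5324 to 55.5331, 41.7979 to 41.7981 against 41.7980 to 41.7983 and 62.8468 to 62.8692 against 62.8445 to 62.8663. Of these lists 5 of 8, 3 of 6 and 7 of 8 markers read higher as deposited. The defining markers Cd3e, Cd3d, Cd8a and Ms4a1 of lymphocytes and Krt19 and Krt7 of cholangiocytes lay below the array medians. The part of these cell types in the members' values was not tested.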

How the data were processed

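Rat liver RNA was measured on 8 Affymetrix rat arrays, named biological replicates by the labels, with biotin-labelled cRNA from 2 µg of total RNA, per the labels' protocols. The authors deposited 1 log2 value per probe set and array; the unit was read from the values, and the sources used here do not give the summarisation and normalization. The number of arrays limits the precision.

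Of 31099 probe sets 57 controls were left out. Names came from the platform annotation: 20826 probe sets had 1 symbol, 436 several and 9780 none. RefSeq gene identifiers matched 20758 of the single-symbol probe sets, all 97 of the members' probe sets included. The groups were compared with lmFit and eBayes of limma 3.58.1 (R 4.3.3) over 31042 probe sets, with Benjamini-Hochberg adjustment over all of them and a threshold of 0.05, without a replicate block. The script was tested on simulated data.

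Named were members past the threshold or without overlap, the 8 lowest and 4 highest moderated statistics per subunit, the iron-sulphur ligands, the Mrps18 paralogs, the 2 lowest and 2 highest of each other list, and Tfrc and Hamp. Mrps11, Mrpl46, Mrps14, Mrps2, Mrpl18, Aars2 and the stalk and tunnel exit genes were named after their values were seen. The members and lists were chosen with earlier results of these data known. Alternatives were other scalings (quantile normalization, also without the Hamp probe sets, and median centring), a replicate block, a filter on the dimmest 25% of probe sets, fits without each array in turn, a trended robust fit, averaging over a gene's probe sets, and Mrps18a and Mrps30 with the large subunit.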

Additional observations from a re-analysis of the deposited data

Results flagged for a closer look

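Among the 62 groups of 4 arrays checked for the named members, Mrpl58, Tfrc and Hamp included, 5 held 1 array whose gap to its nearest neighbour, divided by the range of the group, exceeded Dixon's critical value at the 95% level, and chance alone flags about 1 group in 20. In Mrpl30 control liver 1 was high (0.845), and in Mrps23 the same control liver was high (0.833). In Mrps25 iron-deficient liver 2 was high (0.843). In Mrpl58 iron-deficient liver 3 was low (0.900), at -1.25 millionths of a log2 unit from the control mean against 0.630 to 0.840 in the other iron-deficient livers. In Hamp iron-deficient liver 2 was high (0.984), at 10.577 against 6.928 to 6.988.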

How the results depend on the processing

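The scaling of the arrays turned the direction of both subunits. The median standardised difference of the large subunit, -0.60 as deposited, was 1.10 (1.105) under quantile normalization, 0.18 (0.180) without the Hamp probe sets in it and 0.16 (0.161) under median centring, and that of the small subunit, -0.93 as deposited, was 1.10, 0.36 (0.359) and 0.15 (0.151). The number of members that read lower went from 32 to 1, 18 and 3 in the large and from 23 to 3, 6 and 3 in the small subunit, and the number lower without overlap from 3 and 8 to 0 in both subunits under each of these 3 scalings. Under median centring that 0 was set by the array medians, whose span of 739.5 millionths exceeded every member's difference (at most 291.8 in size). Under quantile normalization 1 large (Mrpl18) and 1 small subunit gene (Mrps22) passed, against 0 as deposited. Over all probe sets 10 passed as deposited, 1093 under quantile normalization, 83 without the Hamp probe sets and 63 under median centring. Over all genes the median standardised difference was -0.07 as deposited and 0.18, -0.30 and 0.17 under the 3 other scalings. Which scaling fits these data was not tested.

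With each array left out in turn, between 4 (without iron-deficient array 4 or control array 3) and 27 (without iron-deficient array 3) probe sets passed, and no member did. The large subunit median ran from -0.85 to -0.27 and the small from -1.34 to -0.74, and members lower from 29 to 38 and from 20 to 25. Members lower without overlap ran from 3 to 5 (5 without iron-deficient array 2 or 3 or control array 2) and from 8 to 9. Leaving an array out cannot make separate groups overlap, so these counts could not fall and do not test the order. The share of all genes lower without overlap was 4.4% with all 8 arrays and ran from 5.5% to 7.7% in these fits. Deviations of arrays with the same number from their group means correlated at -0.11, 0.02, -0.03 and -0.08. Pairs with different numbers ran from -0.15 to 0.17. Whether arrays with the same number share anything else cannot be told from these values, and the labels give only the number. With the number as a replicate block 1 probe set passed, no member did, and the medians were -0.70 and -0.74; Tfrc then had an adjusted p of 0.176. Neither leaving out the lowest 25% of probe sets nor a trended robust fit can change a member's difference, so they do not test its sign. No member passed in either, and averaging over a gene's probe sets turned the sign of 5.

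With 4 arrays a group the precision is limited. The deposited differences of most members are smaller than the offsets between arrays, and their compression is uneven between probe sets, so sizes cannot be compared between genes.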
